A study of Mus musculus with 2 samples.

Results

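CD4 T cells with RNA of interferon-gamma and without RNA of IL-17A were described in the central nervous system (CNS) of mice with EAE (experimental autoimmune encephalomyelitis), an animal model of multiple sclerosis that CD4 T cells initiate. They were selected on measured values: a barcode was taken with UMIs (counted RNA molecules) of 2 or more of Cd3e, Cd3d, Cd3g, Trac and Trbc2, 1 or more of Cd4 and of Ifng, and 0 of Il17a, Foxp3, Cd8a, Cd8b1, Trdc and Ncr1. This gave 554 of 25603 filtered cells, 148 in Stat4fl/flCD11cCre and 406 in WT. Both genotypes were C57BL/6 mice given MOG peptide in CFA with PTX and were studied on day 15. Cells of several mice were pooled within a genotype and sorted for MHCII and CD11c. Both are proteins of antigen-presenting cells, so the T cells here are those that passed such a sort. In Stat4fl/flCD11cCre the Cre recombinase is under the CD11c promoter and is meant to remove Stat4 from dendritic cells, while the labels name neither the floxed exons nor the age of the mice. Each genotype is 1 library, so differences between them lack a check by replicates and carry no p-value. The 95% intervals cover counting error alone.

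Interferon-gamma is the cytokine that defines T helper 1 (Th1) cells. IL-12 acts on a T cell through the receptor chains encoded by Il12rb1 and Il12rb2 and through STAT4, and with the transcription factor T-bet (Tbx21) it turns on Ifng. In EAE, Th1 and IL-17A-producing Th17 cells both enter the CNS, and GM-CSF (Csf2) from T cells acts on myeloid cells there.

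The 2 libraries held 12305 filtered cells in Stat4fl/flCD11cCre and 13298 in WT, with medians of 6878 and 6440 UMIs. The Ifng-expressing CD4 T cells were deeper, at a median of 9670 UMIs in Stat4fl/flCD11cCre and 7542 in WT, against 6663 and 5323 in CD4 T cells that passed the same gate with 0 Ifng UMIs (371 and 629 cells, called other CD4 T cells below). A deeper cell passes a gate of 1 UMI more easily. The libraries shared 42 filtered barcodes, of which 1 Stat4fl/flCD11cCre and 2 WT cells belong here.

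The T cell part of the label held against markers that the rule had not used, while Th1 genes were mixed. All 12 T cell identity genes (among them Cd2, Cd5, Lat, Lck and Bcl11b) were found in both libraries and gave 0.268% of UMIs in Stat4fl/flCD11cCre and 0.260% in WT, against 0.00205% and 0.00211% in microglia. Tbx21 was found in 48.6% of the Stat4fl/flCD11cCre cells and 43.3% of the WT cells, against 17.3% and 23.8% of other CD4 T cells. These shares were not taken at equal depth. Other Th1 genes did not all go with Tbx21: Nkg7 was higher than in other CD4 T cells and Cxcr3 lower (values below). Natural killer T cell markers, which the gate does not use, were also higher than in other CD4 T cells (values below). Of 11 natural killer cell markers 7 were found in both libraries, at 0.105% of UMIs in Stat4fl/flCD11cCre and 0.0952% in WT, against 0.0857% and 0.0993% in other CD4 T cells. Microglia had 0.23% and 0.21%, so over all barcodes this list cannot tell natural killer-like cells from myeloid RNA. Its median per cell was 0.0333% in Ifng-expressing and 0.0124% in other CD4 T cells of Stat4fl/flCD11cCre. In WT the medians were 0.0312% and 0.0212%. Klra8, Klra4 and Klra9 were at 0 in both, as was Ncr1 by the gate. Cells at the edge of the Ifng gate were many: 43 Stat4fl/flCD11cCre cells and 152 WT cells had exactly 1 Ifng UMI, and 371 and 629 had 0. In microglia, which should lack Ifng, a UMI of it was found in 0.214% and 0.458% of cells, at medians of 5901 and 6860 UMIs. The T cell threshold decided little, since 0 cells that met the rest of the rule had exactly 1 T cell gene and 405 of the 406 WT cells had 3 or more.

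The Ifng-expressing cells made up a smaller part of the Stat4fl/flCD11cCre library. They were 1.20% of filtered cells in Stat4fl/flCD11cCre (exact Clopper-Pearson interval 1.02 to 1.41) and 3.05% in WT (2.77 to 3.36), a ratio of 0.394 (0.324 to 0.477). Microglia were more numerous in Stat4fl/flCD11cCre, 6069 cells against 4590 in WT, and with microglia left out of the total the shares were 2.37% in Stat4fl/flCD11cCre and 4.66% in WT, a ratio of 0.509 (0.419 to 0.616). Among CD4 T cells by the gate (598 in Stat4fl/flCD11cCre and 1122 in WT) they were 24.7% and 36.2%, a ratio of 0.684 (0.563 to 0.828). IL-17A-expressing CD4 T cells had another pattern. They numbered 79 in Stat4fl/flCD11cCre and 87 in WT, or 13.2% (10.6 to 16.2) and 7.75% (6.26 to 9.48) of CD4 T cells, a ratio of 1.70 (1.24 to 2.34). Of all filtered cells the ratio was 0.981 (0.714 to 1.35), and of cells without microglia 1.27 (0.923 to 1.74), and both of these intervals include 1. Within CD4 T cells the intervals of the Ifng and Il17a ratios lay on opposite sides of 1, although shares of 1 total are not independent. All shares are of sorted cells and depend on the gate.

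**Figure D1:**
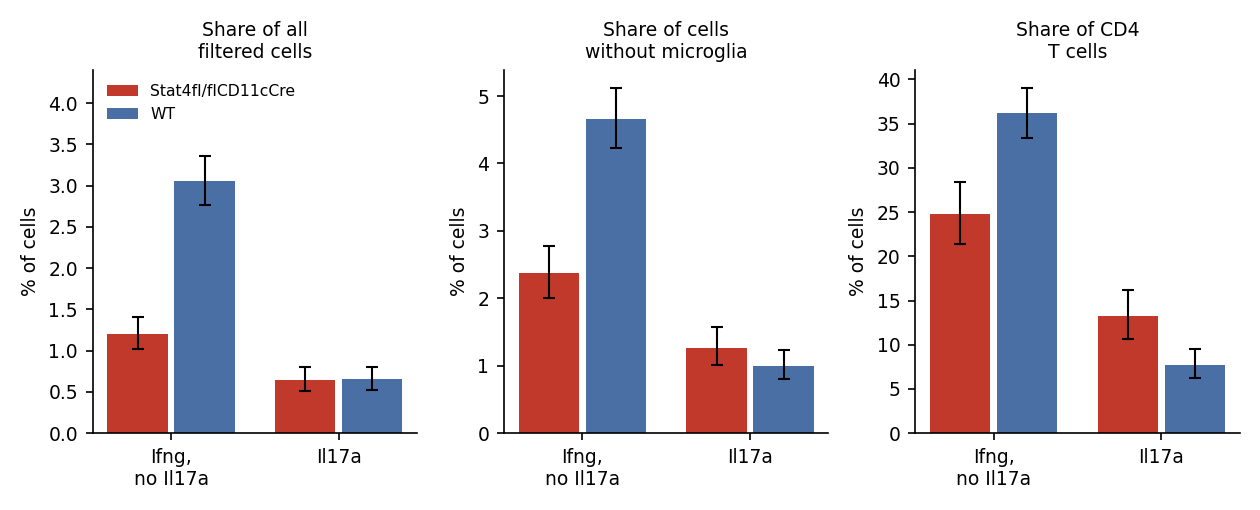
Percentage of cells that are Ifng-expressing CD4 T cells without Il17a, or Il17a-expressing CD4 T cells, in Stat4fl/flCD11cCre (red, left) and WT (blue, right), of 3 totals; bars are shares and lines exact 95% intervals of counting error. The Ifng share is lower in Stat4fl/flCD11cCre under each total (24.7% against 36.2% of CD4 T cells), while the Il17a share of CD4 T cells is higher, at 13.2% against 7.75%.

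Ifng was unevenly spread over the cells. Ifng (ENSMUSG00000055170, chr10:118441046-118445892 in GRCm38, plus strand) had a median of 3 UMIs and a maximum of 120 per cell in Stat4fl/flCD11cCre, and a median of 2 and a maximum of 129 in WT. The 15 Stat4fl/flCD11cCre cells with the most Ifng held 53.9% of its UMIs, and the top 41 WT cells held 56.3%. Cells with 10 or more Ifng UMIs were 22.3% of the Stat4fl/flCD11cCre cells (15.9 to 29.9) and 11.1% of the WT cells (8.20 to 14.6). Summed, Ifng stood at 692 CPM (UMIs scaled to the same total in each group) in Stat4fl/flCD11cCre and 563 in WT, values that the selection itself shaped. Fewer cells thus passed the gate in Stat4fl/flCD11cCre while a larger part of them held many Ifng UMIs, at a median depth that was also higher. These cells were not the only source of Ifng: they held 49.4% of all Ifng UMIs in Stat4fl/flCD11cCre and 41.7% in WT. Cells with Cd8a or Cd8b1 held 25.2% and 15.9%, and cells with Ncr1, a receptor of natural killer cells, 8.42% and 12.8%.

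**Figure D2:**
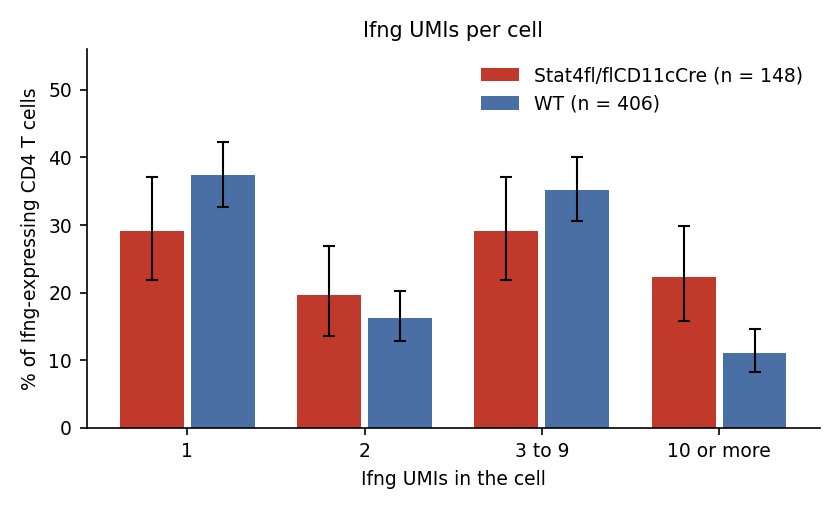
Share of Ifng-expressing CD4 T cells (vertical axis, %) by the number of Ifng UMIs in the cell (horizontal axis) in Stat4fl/flCD11cCre (red, left, n = 148 cells) and WT (blue, right, n = 406 cells), with exact 95% intervals of counting error. Cells with 10 or more Ifng UMIs are 22.3% in Stat4fl/flCD11cCre and 11.1% in WT.

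About 1 in 4 of these barcodes held RNA and surface protein of myeloid cells as well. A list of 25 antigen-presenting and myeloid genes gave a median of 0.0992% of a cell's UMIs in Stat4fl/flCD11cCre and 0.119% in WT, but 1% or more in 36 of 148 barcodes (24.3%, 17.7 to 32.1) and 101 of 406 (24.9%, 20.7 to 29.4). All 25 genes were found in both libraries. The myeloid-rich barcodes had medians of 17100 UMIs in Stat4fl/flCD11cCre and 14715 in WT, against 7215 and 5897 in the others. They also carried the antibody tag for CD11b, a myeloid integrin, at medians of 574 and 565 tag UMIs, against 28.0 and 32.0 in the other Ifng-expressing cells and 427 and 485 in microglia. In 20 of the 36 and 63 of the 101, 3 or more of 7 microglia genes were found, and in 22 and 57, 3 or more of 7 macrophage or monocyte genes. Barcodes of this kind were as frequent among other CD4 T cells (22.9% in Stat4fl/flCD11cCre and 24.5% in WT) and among Il17a-expressing cells (20.3% and 26.4%). Whether they are droplets with more than 1 cell was not tested. Gene values below are over all Ifng-expressing cells unless the myeloid-rich barcodes are said to be left out. Leaving them out kept 112 cells in Stat4fl/flCD11cCre and 305 in WT. Without them the share of CD4 T cells was 24.3% in Stat4fl/flCD11cCre and 36.1% in WT, a ratio of 0.672 (0.537 to 0.838).

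**Figure D3:**
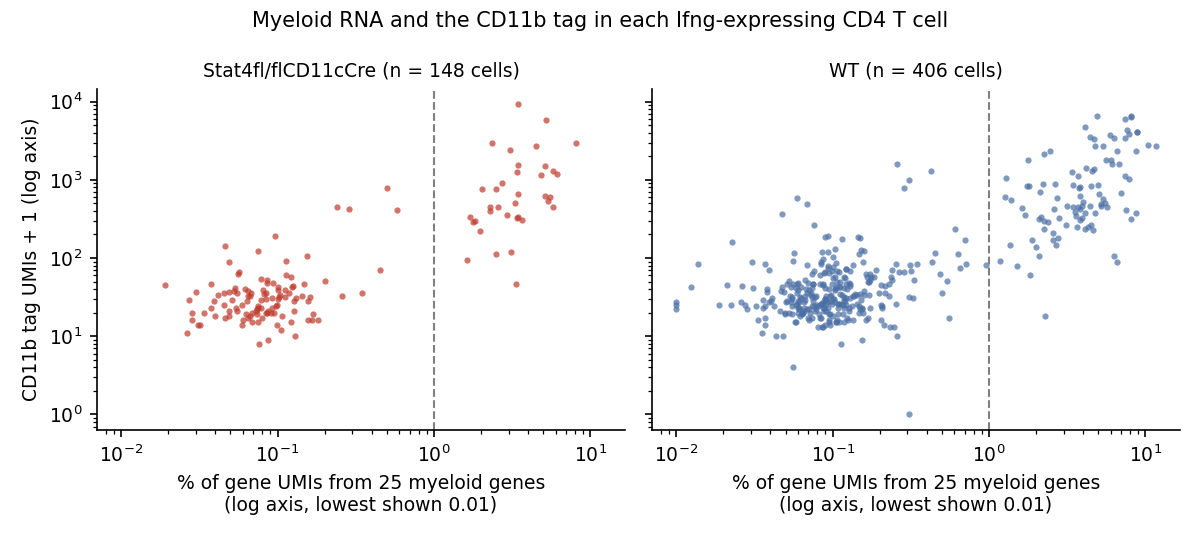
Each point is 1 Ifng-expressing CD4 T cell in Stat4fl/flCD11cCre (left, 148 cells) or WT (right, 406 cells): the share of its gene UMIs from 25 myeloid genes (horizontal, log axis) against its CD11b tag UMIs plus 1 (vertical, log axis). The dashed line marks 1%: 36 and 101 cells lie at or above it, with median tag counts of 574 and 565 against 28.0 and 32.0 in the rest.

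Against other CD4 T cells of the same library, Ifng-expressing cells had more RNA of several cytokine and chemokine genes, among them Csf2, Lta, Ccl1 and Xcl1, and less of Tcf7 and Il7r, genes of naive and memory T cells. Of 8494 genes with 50 or more UMIs in each library's comparison, 110 (1.3%) were 1.5-fold or more higher in both libraries and 76 (0.895%) lower. Without myeloid-rich barcodes it was 103 (1.65%) and 110 (1.76%) of 6250 genes. Ccl1, a chemokine for CCR8-bearing cells, stood at 3761 CPM in Ifng-expressing and 168 in other CD4 T cells of Stat4fl/flCD11cCre, and at 1508 and 254 in WT (log2 ratios 4.49 and 2.57). Csf2 had log2 ratios of 3.82 (3.46 to 4.20) in Stat4fl/flCD11cCre and 2.32 (2.05 to 2.60) in WT. Much of this rests on few cells: the 5 with the most Csf2 held 421 of 501 UMIs in Stat4fl/flCD11cCre and 343 of 548 in WT. The remaining Ifng-expressing cells stood at 48.6 CPM in Stat4fl/flCD11cCre and 49.8 in WT. All other CD4 T cells stood at 20.5 and 26.3. Xcl1, a chemokine for XCR1-bearing dendritic cells, had 3.14 and 2.24, and lymphotoxin-alpha (Lta) 2.32 and 1.84. These 4 genes were still higher without myeloid-rich barcodes, at log2 ratios of 4.69 and 2.26 for Ccl1, 3.99 and 2.73 for Csf2, and 2.23 and 1.91 for Lta. Xcl1 then stood at 251 CPM in Ifng-expressing and 20.6 in other CD4 T cells of Stat4fl/flCD11cCre, and at 264 and 48.7 in WT. Few cells carry some of them: Xcl1 was found in 15 of 148 Stat4fl/flCD11cCre cells and 41 of 406 WT cells, with up to 102 and 120 UMIs in 1 cell. The other genes ranked highest over all cells, Rgs16, Nrgn, Igfbp7, Tmem163, Il18rap, Rgcc and Adamts6, had log2 ratios between 0.85 and 2.21 in Stat4fl/flCD11cCre and between 0.82 and 1.75 in WT. Ranked lowest beside Tcf7, Il7r and Ikzf2 were Plbd1, Ctla2a, Cxcl2, Gbp2, Samhd1, Vps37b and Aff3, between -1.51 and -0.60 in Stat4fl/flCD11cCre and between -0.90 and -0.56 in WT.

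The DNA just before the starts of Ifng and of the chemokine genes Ccl1 and Xcl1 is shown because Ifng selected the cells, and Ccl1 and Xcl1 were among the genes ranked highest over other CD4 T cells. Each is the 250 bases before the start in RefSeq on GRCm38.p6, read 5′ to 3′ on the gene's strand: chr10:118440796-118441045 (plus strand) for Ifng, chr11:82179813-82180062 (minus strand) for Ccl1 and chr1:164935523-164935772 (minus strand) for Xcl1. Capitals mark matches on either strand to GGAAA, the core of sites for NFAT (a factor activated by T cell receptor signals), to the STAT palindrome TTCNNNGAA, or to TCACACC, a T-box half-site. No match overlaps another.
Ifng: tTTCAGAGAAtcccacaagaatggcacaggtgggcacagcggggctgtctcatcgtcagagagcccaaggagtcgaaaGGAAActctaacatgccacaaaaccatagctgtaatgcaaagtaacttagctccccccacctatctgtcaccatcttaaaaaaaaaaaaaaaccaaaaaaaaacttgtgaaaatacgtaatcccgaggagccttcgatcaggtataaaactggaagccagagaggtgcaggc
Ccl1: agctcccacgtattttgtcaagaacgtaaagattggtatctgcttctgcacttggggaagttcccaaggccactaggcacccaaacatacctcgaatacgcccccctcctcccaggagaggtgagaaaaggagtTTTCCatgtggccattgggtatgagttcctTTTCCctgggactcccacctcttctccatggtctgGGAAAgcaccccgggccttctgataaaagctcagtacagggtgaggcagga
Xcl1: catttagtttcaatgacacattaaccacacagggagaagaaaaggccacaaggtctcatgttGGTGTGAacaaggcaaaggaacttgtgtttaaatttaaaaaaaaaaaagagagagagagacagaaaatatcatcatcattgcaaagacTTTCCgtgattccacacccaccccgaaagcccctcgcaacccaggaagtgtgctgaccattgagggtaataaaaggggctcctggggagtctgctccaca
The NFAT core was matched 1 time before Ifng, 3 times before Ccl1 and 1 time before Xcl1, and 55.6% of 32851 mouse promoters of the same length hold it. The STAT palindrome was matched before Ifng alone of the 3 (7.02% of promoters hold it), and the T-box half-site before Xcl1 alone (3.33% hold it). A match in these letters is a description of the sequence and not a measured binding site.

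The gene lists hold several of the genes ranked highest or lowest above, and some genes, such as Xcl1, are in more than 1 list. They restate those results in groups and are no separate check of them. The lists are given here without myeloid-rich barcodes and counted where a gene was 1.5-fold or more different in both libraries. Over all genes 1.65% were higher and 1.76% lower by this count. Of 13 measured cytokine genes 5 were higher (Csf2, Lta, Tnf, Csf1 and Fasl) and 0 lower, and of 6 chemokine genes 4 were higher (Xcl1, Ccl1, Ccl3 and Ccl4) and 1, Cxcl2, lower. Tnf stood at 283 CPM in Ifng-expressing and 99.7 in other CD4 T cells of Stat4fl/flCD11cCre, and at 230 and 131 in WT (log2 ratios 1.51 and 0.81). Of 12 cytotoxic genes 7 were higher and 1 lower. Nkg7, a granule membrane protein, had log2 ratios of 1.74 (1.60 to 1.87) in Stat4fl/flCD11cCre and 1.40 (1.30 to 1.51) in WT, while granzyme B (Gzmb) had -2.21 and -1.36. The cytotoxic list shares Crtam, Klrc1 and Klrd1 with markers of CD8 T cells, and over all barcodes those markers gave 0.0371% of UMIs in Ifng-expressing and 0.0196% in other CD4 T cells of Stat4fl/flCD11cCre, and 0.0269% and 0.0169% in WT, with Cd8a and Cd8b1 at 0 by the gate. Of 3 measured natural killer cell markers 2 were higher in both libraries without myeloid-rich barcodes, and of 2 measured natural killer T cell markers, Cd160 and Xcl1, both were. The 5 natural killer T cell markers together gave 0.0204% of UMIs in Ifng-expressing and 0.00419% in other CD4 T cells of Stat4fl/flCD11cCre, and 0.0207% and 0.00605% in WT, over all barcodes. They reached 1% in 1 and 5 of the Ifng-expressing cells, and Klra1 was at 0 in those of Stat4fl/flCD11cCre. The part of all these markers in the result was not tested. Of 22 T cell receptor activation genes 6 were higher (Xcl1, Egr2, Egr3, Nr4a3, Rel and Dusp2) and 0 lower. Of 13 co-inhibitory genes 5 were higher and 2 lower: Havcr2, which encodes TIM-3, had 1.92 and 1.27, Lag3 1.40 and 0.93, and Pdcd1, which encodes PD-1, 0.89 and 0.82. The medians over these lists, taking for each gene the value nearer 0 of the pair, were 0.31 for cytokines, 1.88 for chemokines, 0.62 for cytotoxic, 0.29 for activation and 0.16 for co-inhibitory genes, beside 0 over all genes.

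Some genes of naive and memory T cells were lower. Of 10 naive and central memory genes 0 were higher and 4 lower, beside 1.65% higher and 1.76% lower over all genes. Tcf7, a transcription factor of naive and memory T cells, had log2 ratios of -2.24 in Stat4fl/flCD11cCre and -1.62 in WT, and Il7r, the IL-7 receptor, -1.40 and -1.23. Of 11 chemokine and migration receptor genes 0 were higher and 5 lower (Ccr4, Cxcr4, S1pr1, P2ry10 and Ccr2). Of 22 genes of the interferon-gamma response 0 were higher and 7 lower, among them Irf1, a transcription factor, at -0.86 and -0.73: the cells with Ifng RNA had less of these than CD4 T cells without it. Ikzf2, which encodes Helios, was at -2.29 and -1.30. Of 25 proliferation genes 4 were higher and 0 lower, and the cell-cycle antigen Mki67 had 0.91 and 0.87. With every cell thinned to 2500 UMIs before the gate, Mki67 over all cells was at -0.23 in Stat4fl/flCD11cCre and -0.53 in WT, so its direction changed under thinning.

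**Figure D4:**
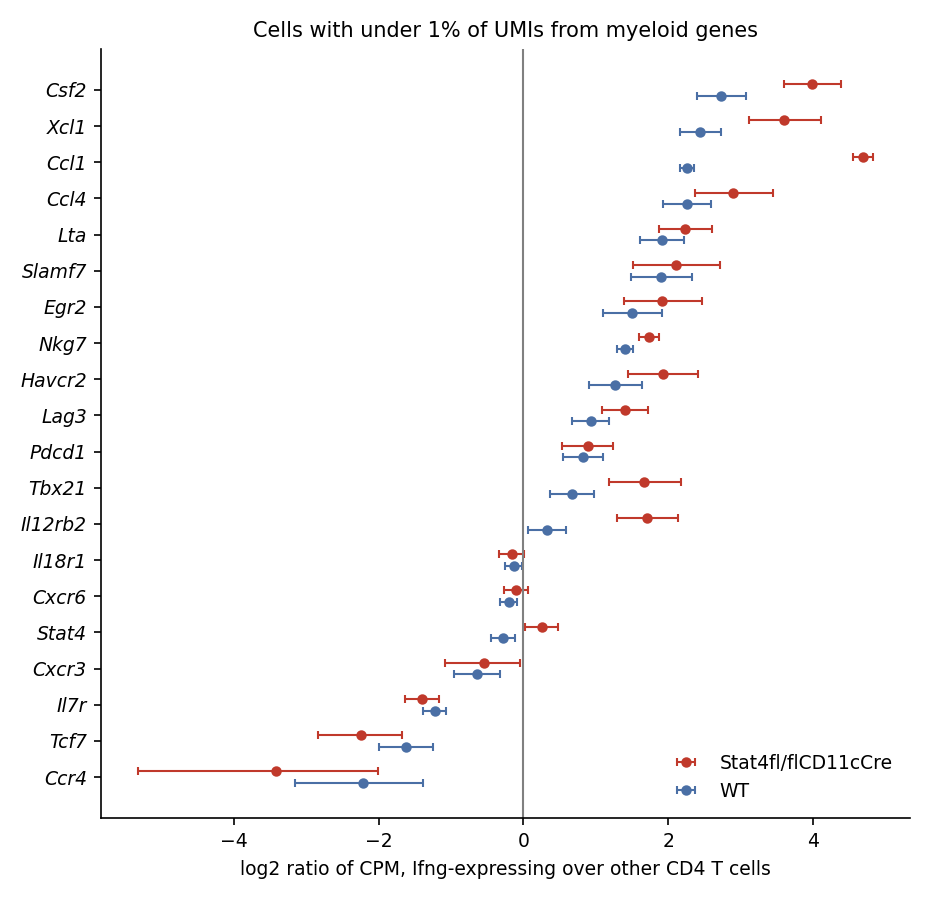
Log2 ratio of CPM in Ifng-expressing over other CD4 T cells (horizontal axis) for 20 genes in Stat4fl/flCD11cCre (red, upper point) and WT (blue, lower point), with 95% intervals of counting error, without myeloid-rich barcodes; the genes were chosen for display with their values known. Csf2 (3.99 and 2.73), Xcl1, Ccl1 and Ccl4 lie farthest to the right, and Tcf7 and Ccr4 farthest to the left, in both libraries. Of the Csf2 UMIs of Ifng-expressing cells, 5 cells held 421 of 487 in Stat4fl/flCD11cCre and 343 of 511 in WT.

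Th1 genes split. Of 16 measured, 4 were higher in both libraries without myeloid-rich barcodes (Nkg7, Tbx21, Fasl and Il18rap, a chain of the IL-18 receptor) and 0 were lower. Over all genes 1.65% were higher and 1.76% lower. Tbx21 stood at 91.4 CPM in Ifng-expressing and 28.7 in other CD4 T cells of Stat4fl/flCD11cCre (log2 1.67, 1.18 to 2.18), and at 96.6 and 60.9 in WT (0.67, 0.36 to 0.97). Il12rb2 stood at 130 and 39.8 CPM in Stat4fl/flCD11cCre (log2 1.71, 1.29 to 2.13), and at 116 and 92.2 in WT (0.32, 0.06 to 0.58). For both genes the Ifng-expressing cells of the libraries had levels within counting error of each other, and other CD4 T cells had less in Stat4fl/flCD11cCre than in WT. The difference of these ratios between the genotypes was not tested, since each genotype is 1 library. Cxcr3, the Th1 chemokine receptor, was instead lower in Ifng-expressing cells, at log2 -0.55 (-1.08 to -0.05) in Stat4fl/flCD11cCre and -0.64 (-0.97 to -0.33) in WT. The IL-18 receptor chain Il18r1 (-0.16 and -0.14), Cxcr6 (-0.10 and -0.21) and Stat4 (0.26 and -0.28) lay nearer 0, and Stat4 had opposite signs in the libraries.

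Some genes differed with the amount of Ifng in a cell. Without myeloid-rich barcodes, Lta stood at 45.3, 77.4, 155 and 468 CPM in Stat4fl/flCD11cCre CD4 T cells with 0, 1 or 2, 3 to 9, and 10 or more Ifng UMIs (286, 52, 34 and 26 cells), and at 44.7, 75.1, 161 and 471 in WT (475, 159, 109 and 37 cells). The Lta intervals of the genotypes overlapped in each class. Egr2, an early gene of T cell receptor signalling, stood at 23.7, 56.1, 83.6 and 141 CPM in Stat4fl/flCD11cCre and 28.7, 53.7, 92.6 and 134 in WT. Nkg7 stood at 362, 774, 1386 and 1578 CPM in Stat4fl/flCD11cCre and 415, 918, 1105 and 1620 in WT. Il7r went the other way, at 481, 310, 102 and 109 CPM in Stat4fl/flCD11cCre and 435, 217, 174 and 122 in WT. Tcf7 was found in 0 of the 26 Stat4fl/flCD11cCre cells and 1 of the 37 WT cells with the most Ifng. The Th1 genes did not all follow this order. Stat4 stood at 215, 243, 248 and 287 CPM in Stat4fl/flCD11cCre and 278, 228, 243 and 188 in WT, and Cxcr3 at 65.4, 69.4, 41.8 and 14.5 CPM in Stat4fl/flCD11cCre and 89.9, 80.0, 43.6 and 26.9 in WT. Xcl1 stood at 20.6, 21.4, 633 and 97.9 CPM in Stat4fl/flCD11cCre and 48.7, 221, 303 and 292 in WT, no higher in the top class than in the class before it. For Csf2 the libraries had different orders: it stood at 31.2, 64.1, 56.8 and 1610 CPM in Stat4fl/flCD11cCre and 33.8, 45.9, 348 and 433 in WT, with UMIs in 12 and 13 cells of the top class. These sums rest on few cells. In Stat4fl/flCD11cCre 5 cells held 421 of the 444 Csf2 UMIs of the top class, which stood at 116 CPM without them. In WT 5 cells held 124 of the 145 UMIs of the top class (76.3 CPM without them), and 1 cell held 207 of the 319 UMIs of the class with 3 to 9 Ifng UMIs (123 CPM without it). Depth also increased with Ifng over all Ifng-expressing cells, to medians of 10075 in Stat4fl/flCD11cCre and 9041 in WT with 10 or more UMIs.

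**Figure D5:**
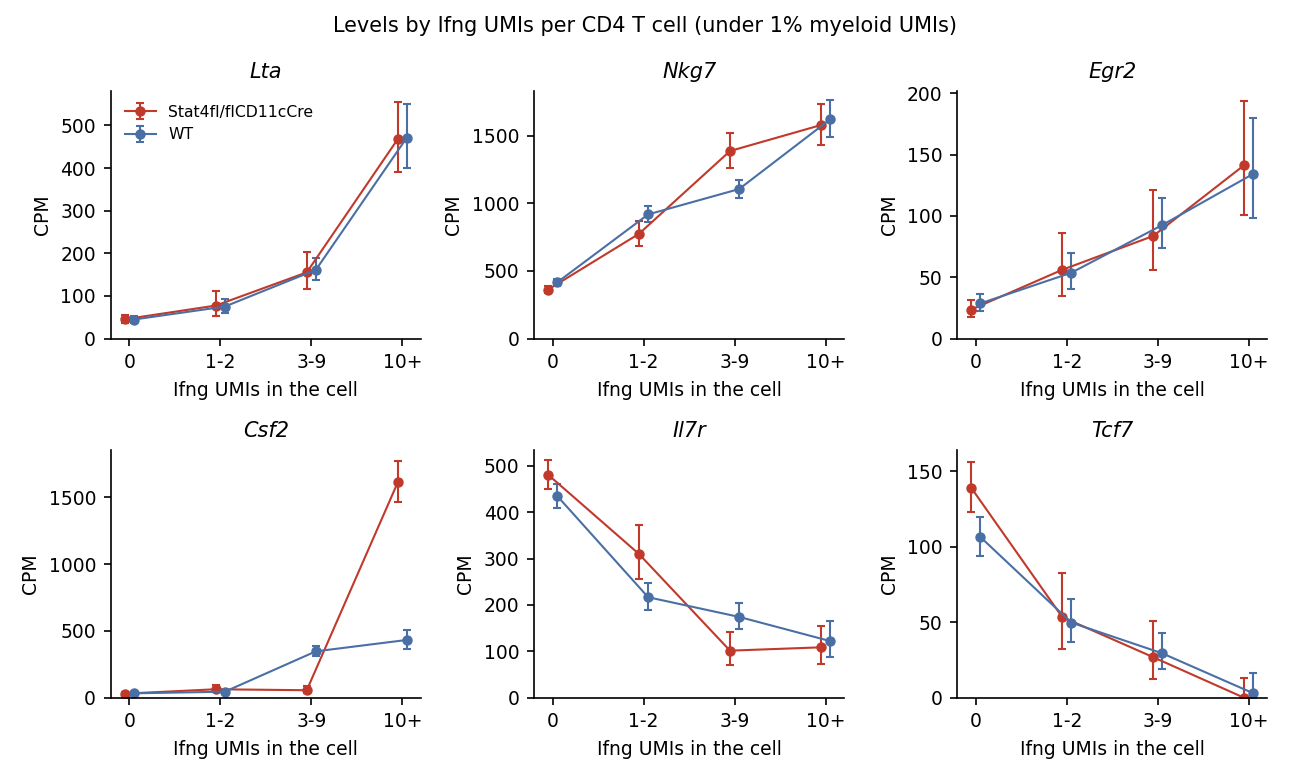
CPM of 6 genes (vertical axes) in CD4 T cells with 0, 1 or 2, 3 to 9, and 10 or more Ifng UMIs (horizontal axes) in Stat4fl/flCD11cCre (red) and WT (blue), with exact Poisson 95% intervals, without myeloid-rich barcodes. From the lowest to the highest class Lta, Nkg7 and Egr2 are higher and Il7r and Tcf7 lower in both libraries, while Csf2 reaches 1610 CPM in Stat4fl/flCD11cCre and 433 in WT, sums of which 5 cells held 421 of 444 and 124 of 145 UMIs.

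Against Il17a-expressing CD4 T cells, Th1 and cytotoxic genes were higher and Th17 genes lower in both libraries. The groups were selected by Ifng without Il17a and by Il17a, so the selection itself shaped genes that go with either cytokine. How far it did so was not tested. Of 6492 genes 101 (1.56%) were higher and 65 (1%) lower in both, and without myeloid-rich barcodes 97 (2.17%) and 94 (2.11%) of 4462. Of 15 Th1 genes 9 were then higher, of 10 cytotoxic genes 8, and of 13 Th17 genes 11 were lower, with no member of the 3 lists going the other way. Over all cells, Tbx21 had log2 ratios of 1.78 in Stat4fl/flCD11cCre and 1.64 in WT, Il12rb2 2.62 and 1.37, Nkg7 3.02 and 2.35, the chemokine gene Ccl5 3.88 and 2.02, the protease gene Ctsw 1.87 and 1.52, and the receptor gene Klrc1 2.04 and 2.70. Ccl1 stood at 3761 CPM in Ifng-expressing and 451 in Il17a-expressing cells of Stat4fl/flCD11cCre, and at 1508 and 76.4 in WT. Without myeloid-rich barcodes Tbx21 had 1.55 and 1.99, Il12rb2 3.13 and 1.30, Nkg7 3.01 and 2.22, Ccl5 3.67 and 3.62 and Ctsw 1.86 and 1.58. Klrc1 then stood at 136 CPM in Ifng-expressing and 31.2 in Il17a-expressing cells of Stat4fl/flCD11cCre, and at 126 and 15.6 in WT. Over all cells Xcl1 had 3.39 in Stat4fl/flCD11cCre and 0 UMIs in the Il17a-expressing cells of WT. Il22, a Th17 cytokine, was at 9.86 CPM in Ifng-expressing and 494 in Il17a-expressing cells of Stat4fl/flCD11cCre, and at 5.52 and 173 in WT. It had UMIs in 2 and 6 of the Ifng-expressing cells. Few Il17a-expressing cells carried it too, 8 of 79 in Stat4fl/flCD11cCre and 9 of 87 in WT. Il1r1, the receptor of the Th17-promoting cytokine IL-1, had -1.86 and -1.94, the inhibitory receptor gene Ctla4 -2.29 and -1.54, Tff1 -2.34 and -1.97, Dgat1 -1.77 and -1.53, and Plcb4 -1.27 and -1.42. Without myeloid-rich barcodes Il22 had log2 ratios of -5.42 and -4.36, Il1r1 -1.44 and -2.09, Ctla4 -2.15 and -1.61, Tff1 -2.09 and -1.95, Dgat1 -1.74 and -1.58, and Plcb4 -1.31 and -1.54. Il2 had -3.58 and -6.32, with UMIs in 5 and 2 of the Il17a-expressing cells, and the WT value was 1.31 without the barcode that held the most of it. Il17f, the partner of Il17a, had 0 UMIs in the Ifng-expressing cells of Stat4fl/flCD11cCre and was found in 1 of those of WT. Of the Il17a-expressing cells, 8 in Stat4fl/flCD11cCre and 14 in WT had it. Ifng itself was found in 21.5% of the Il17a-expressing cells of Stat4fl/flCD11cCre and 28.7% of those of WT.

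Between the genotypes, the measured level of the targeted gene was not lower in the T cells of Stat4fl/flCD11cCre. Stat4 (ENSMUSG00000062939, chr1:51987148-52107189 in GRCm38, plus strand) stood at 202 CPM in Stat4fl/flCD11cCre and 176 in WT (log2 0.20, 0.01 to 0.39), and was found in 71.6% and 62.1% of the Ifng-expressing cells. Reads from outside a deleted part do not check a deletion. Itgax, whose promoter drives the Cre, was found in 11 of 148 Stat4fl/flCD11cCre cells and 41 of 406 WT cells, and without myeloid-rich barcodes in 6 of 112 and 9 of 305. Without those barcodes Stat4 was at 0.17 (-0.05 to 0.39). Tbx21 had a log2 ratio of 0.08 (-0.23 to 0.38) over all cells and -0.08 (-0.45 to 0.28) without myeloid-rich barcodes, and Il12rb2 0.24 (-0.02 to 0.50) and 0.17 (-0.15 to 0.48). Il12rb1 had few UMIs and a wide interval, at -0.42 (-1.44 to 0.51) over all cells. The IL-18 receptor chain Il18r1 was at -0.06 (-0.21 to 0.09) over all cells and -0.14 (-0.32 to 0.03) without myeloid-rich barcodes. The intervals of these genes span 0, apart from that of Stat4 over all cells, which does not show that the levels were alike. The Th17 gene Il23r (-0.09, -0.94 to 0.70) had few UMIs, and the selecting genes Cd4 and Cd3e stood at -0.03 and -0.08. Of 17 genes of IL-12 and interferon-gamma signalling 0 were 1.5-fold or more higher and 1, Tyk2, lower, with a median of 0.01, and of 17 Th1 genes 0 were higher and 1, Ccl5, lower, with a median of -0.06. Over all 8857 genes 288 (3.25%) were higher and 564 (6.37%) lower, with a median of -0.02.

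The summed Ccl1 level was higher in the Ifng-expressing cells of Stat4fl/flCD11cCre than in those of WT, while a higher summed Csf2 level came with few cells. Csf2 (chr11:54247271-54249667 in GRCm38) stood at 291 CPM in Stat4fl/flCD11cCre and 132 in WT (log2 1.15, 0.97 to 1.32), and at 494 and 224 without myeloid-rich barcodes (1.14, 0.96 to 1.32). The 5 barcodes with the most Csf2 held 421 of 501 UMIs in Stat4fl/flCD11cCre and 343 of 548 in WT. Without them, an alternative chosen after seeing the data, Csf2 stood at 48.6 CPM in Stat4fl/flCD11cCre and 49.8 in WT (log2 -0.04, -0.43 to 0.34), and at 72.7 and 75.5 without myeloid-rich barcodes (-0.05, -0.49 to 0.37). The difference in level was not seen without these cells, but 5 is a larger part of 148 cells than of 406. Such a step can by itself bring the ratio down. With only the top barcode of each library left out, also chosen after seeing the data, the log2 ratio was 1.49. That barcode held 106 UMIs in Stat4fl/flCD11cCre and 207 in WT. Csf2 was found in 36 of 148 Stat4fl/flCD11cCre cells and 69 of 406 WT cells, and in 12.2% and 11.1% after thinning to 2500 UMIs. At equal depth the shares of cells with Csf2 thus lay close to each other. Ccl1 stood at 3761 CPM in Stat4fl/flCD11cCre and 1508 in WT (log2 1.32, 1.27 to 1.37), in 65 and 130 cells, with up to 878 and 441 UMIs in 1 cell. Without the 5 barcodes with the most Ccl1 in each library it stood at 2014 CPM in Stat4fl/flCD11cCre and 1139 in WT (log2 0.82, 0.76 to 0.89), and at 2806 and 1518 without myeloid-rich barcodes (0.89, 0.81 to 0.96). Here too the 5 barcodes were a larger part of the Stat4fl/flCD11cCre cells than of the WT cells. The transcription factor gene Bhlhe40, which is needed for GM-CSF production by T cells, had 0.41 (0.25 to 0.58), which was 0.30 (0.10 to 0.50) without myeloid-rich barcodes, and Lta 0.69 (0.49 to 0.90), which was 0.34 (0.09 to 0.59) without myeloid-rich barcodes. Of 15 cytokine genes 4 (Csf2, Areg, Tnfsf8 and Lta) were 1.5-fold or more higher and 0 lower (median 0.33), and without those barcodes 5 and 0 of 14 (0.36). Over all genes 3.25% were higher and 6.37% lower, and without those barcodes 3.02% and 6.2%. The cytokine median over all cells was 0.18 without the top barcode of each gene, an alternative chosen after seeing the data. The 4 genes include Csf2, whose difference was not seen without 5 barcodes per library. Tnf (-0.08, -0.26 to 0.10), Cxcr3 (-0.11, -0.56 to 0.32) and Cxcr6 (-0.07, -0.22 to 0.08) had intervals that span 0. Without myeloid-rich barcodes Tnf was at 0.30 (0.09 to 0.52), Cxcr3 at -0.36 (-0.89 to 0.14) and Cxcr6 at -0.10 (-0.26 to 0.07), so the Tnf interval then lay above 0. Ccl5 stood at 290 CPM in Stat4fl/flCD11cCre and 479 in WT (log2 -0.73, and -0.50 without myeloid-rich barcodes), and Cd40lg, the ligand that activates antigen-presenting cells, at 106 and 146 (-0.46, and -0.52). Tnfrsf9, which encodes the activation receptor 4-1BB, was at 63.8 and 124 (-0.95, and -1.13).

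For several genes 1 barcode held a large part of the UMIs. Il2 had 32 UMIs in Stat4fl/flCD11cCre, 30 of them in 1 cell, and 17 in WT, and its log2 ratio between the genotypes was -0.90 without the top barcode of each library. Elane, a neutrophil granule enzyme, had 432 of 463 Stat4fl/flCD11cCre UMIs in 1 barcode, and Camp 980 of 1074. Their log2 ratios without the top barcodes were 2.64 for Elane and 4.83 for Camp. The choroid plexus gene Ttr had 1505 of 2091 WT UMIs in 1 barcode, and -4.01 without the top barcodes. Penk, which encodes an opioid peptide precursor, had 180 UMIs in 7 Stat4fl/flCD11cCre cells, 90 of them in 1, and 12 in 8 WT cells, and 4.60 without the top barcodes. Of these 5 genes Il2 alone changed sign. Neutrophil markers gave 0.806% of UMIs in Stat4fl/flCD11cCre and 0.194% in WT, with 6 and 9 barcodes at 1% or more, and all 12 were found in both. Of the 12 genes ranked highest in Stat4fl/flCD11cCre, Retnlg, S100a9, Prtn3, S100a8, Mpo, Ngp and Ctsg are also genes of neutrophils or their precursors. Gzma, which encodes granzyme A, had 283 UMIs in 10 Stat4fl/flCD11cCre cells and 200 in 22 WT cells (164 and 48.0 CPM), and stood at 278 and 80.8 CPM without myeloid-rich barcodes (log2 1.78).

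Genes of the response to interferon-gamma were lower in Stat4fl/flCD11cCre over all barcodes, but not once the myeloid-rich ones were left out. Of 28 such genes 0 were higher and 8 lower over all barcodes, with a median log2 ratio of -0.34, beside 3.25% higher and 6.37% lower of all genes. Without the myeloid-rich barcodes 0 were higher and 2 lower of 23, and the median was 0.04, beside 199 (3.02%) higher and 408 (6.2%) lower of all 6580 genes and a median of -0.04. Irf1 stood at 99.8 CPM in Stat4fl/flCD11cCre and 134 in WT over all barcodes (-0.42, -0.68 to -0.17), and at 65.0 and 65.4 without the myeloid-rich ones (-0.01, -0.46 to 0.42). MHC class II genes had much lower levels without those barcodes. The barcodes were left out for their RNA of antigen-presenting and myeloid genes, so this step itself shaped these levels. H2-Aa stood at 501 CPM in Stat4fl/flCD11cCre and 977 in WT, and at 10.2 and 16.7 without the myeloid-rich barcodes. Cd74, the class II chaperone, was at 1246 and 2782, and at 30.5 and 74.2. Iigp1 and Cxcl9, genes strongly induced by interferon-gamma, were among the 12 lowest over all barcodes, with Gpnmb, Acod1, Apoe, Sgms2, Cfb, Tnfaip2, Cacna1d and Lrmda. Proliferation genes had a median of 0.32 over all barcodes (3 higher and 1 lower of 25) and -0.10 without the myeloid-rich ones (1 and 4).

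Few cells held several of the cytokines. Csf2 and Tnf were found together in 16.2% of the Stat4fl/flCD11cCre cells (10.7 to 23.2) and 11.3% of the WT cells (8.42 to 14.8), and none of Csf2, Tnf and Il2 was found in 38.5% and 37.4%. Tnf was also found in 20.5% and 38.5% of microglia, a myeloid source of it. Il10 was found in 0 of 148 Stat4fl/flCD11cCre cells (a limit of 2.03% by 3 counts, which bounds cells with a counted Il10 molecule and not cells that express the gene) and in 6 of 406 WT cells. Il3 was found in 0 of the 148 and 0 of the 406 cells. Il21 was found in 0 of 148 and 9 of 406 cells. The counting intervals of these shares of Ifng-expressing cells overlap between the genotypes, which does not show that they are alike. This does not extend to the shares of microglia with Tnf.

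T cell receptor beta V genes were found in a minority of the cells. The RNA was captured with a 3' kit, and the part of this in the low number was not tested. Exactly 1 Trbv gene was found in 45 Stat4fl/flCD11cCre and 103 WT cells. Trbv12-2 was found in 31.1% of these in Stat4fl/flCD11cCre (18.2 to 46.6) and 11.7% in WT (6.17 to 19.5), Trbv20 in 24.4% and 13.6%, Trbv13-2 in 17.8% and 17.5%, and Trbv19 in 13.3% and 24.3%. The same 4 genes were found in 15.3%, 23.5%, 18.8% and 10.6% of other CD4 T cells of Stat4fl/flCD11cCre with 1 Trbv gene (85 cells), and in 16.3%, 18.5%, 11.1% and 11.9% of those of WT (135 cells). The intervals of each V gene overlap between the genotypes, and cells of 1 clone are not independent.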

How the data were processed

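Per the labels, single-cell RNA was captured with a 10x Genomics 3' kit from CNS mononuclear cells of a pool of mice per genotype. Per the file headers, Cell Ranger 7.0.0 made the deposited table of UMI counts for each gene in each barcode; mm10, bcl2fastq, STAR, Seurat and R 4.3.0 are named in the submitters' processing notes with no role. Removal of doublets before deposit is not given in the sources used here. Antibody tags were kept out of gene totals.

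The cell filter asked for at least 500 genes, at least 1000 UMIs and less than 10% of UMIs from mitochondrial genes. Groups followed the genotype labels. UMIs were summed over the cells of a group and scaled to CPM with exact Poisson intervals. Ratios carry exact conditional binomial intervals and shares exact Clopper-Pearson intervals, all at 95%. A gene counted as higher or lower at 1.5-fold, given at least 50 UMIs; a fold is not a test. Genes that chose the cells were left out of counts. Microglia had 3 or more of Tmem119, P2ry12, Sall1, Gpr34 and Olfml3 and no T cell gene. A share of 0 is limited by 3 counts. Scrublet (scanpy 1.11.5) called too few doublets at its automatic threshold to be used, so no doublets were removed and the 10% highest scores were left out as an alternative.

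The rule named a fixed set of Th1, cytokine and antigen-presentation genes, the 12 highest and 12 lowest between genotypes, the 15 highest and 10 lowest against other CD4 T cells and 8 and 8 against Il17a cells (by the interval bound nearest 1, at a minimum of 100 UMIs and 50 CPM), and up to 4 members a list; further list members named, such as Tnfrsf9, Gzmb, Havcr2 and Ccr4, were chosen after their values were seen. The cells, lists and genes were chosen with earlier results of these data known. The ratio step was tested on simulated data. Gene positions are from GENCODE M21 and promoters from RefSeq (GRCm38.p6), both on the build named mm10. Values of a few genes of the lists are not reported here.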

Additional observations from a re-analysis of the deposited data

Results flagged for a closer look

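6 genes differed between Ifng-expressing and other CD4 T cells in opposite directions in the libraries, each past 1.5-fold with an interval clear of 0. The difference between the genotypes was not tested. S100a8 had log2 ratios of 0.69 in Stat4fl/flCD11cCre and -0.94 in WT, S100a9 0.75 and -1.13, and Camp 2.12 and -1.01. Ngp had 0.67 and -0.83, Ifitm6 0.66 and -0.76, and Saa3 0.79 and -1.27. S100a8, S100a9, Camp and Ngp are genes of neutrophils, whose markers gave 0.806% of the UMIs of Ifng-expressing cells in Stat4fl/flCD11cCre and 0.194% in WT. Camp had 980 of its 1074 UMIs in 1 Stat4fl/flCD11cCre barcode. The part of such barcodes in these ratios was not tested.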

How the results depend on the processing

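The lower share of Ifng-expressing cells in Stat4fl/flCD11cCre kept its direction under every alternative run. Its ratio of 0.394 was 0.662 with myeloid-rich barcodes left out of cells and total alike, 0.684 of CD4 T cells and 0.509 of cells without microglia, and 0.388 to 0.455 under the others. Of all cells with 2 or more of the T cell genes it was 0.786. Gene counts mostly followed how many UMIs or what fold were asked for. Between genotypes, 288 higher and 564 lower genes were 109 and 125 with cells thinned to 2500 UMIs, 599 and 1081 with a minimum of 20 UMIs, 47 and 120 with 200, and 59 and 133 at 2-fold, and 146 and 820 without the top barcode of each gene (an alternative chosen after seeing the data). Against other CD4 T cells, 110 and 76 became 56 and 38 with thinned cells, 201 and 150 with 20 UMIs, 45 and 22 with 200, and 25 and 16 at 2-fold, and 133 were lower with 2 or more Ifng UMIs and 121 with the mean of CPM per cell. Against Il17a cells (alternatives added after seeing the data), 101 and 65 became 29 and 13 with thinned cells, 242 and 127 with 20 UMIs, 21 and 25 with 200, and 28 and 21 at 2-fold, with 187 higher without the highest Scrublet scores and 115 lower with the mean of CPM per cell. The cause was not tested, except that the minimum and the fold change the counts by their own construction and thinning leaves 70 and 160 cells.

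Some single genes changed sign. Without myeloid-rich barcodes the genotype log2 ratio of Itgax became 0.33, Prtn3 -3.24, Sgms2 0.21, Iigp1 0.33 and Tnfaip2 0.072. With cells thinned, Acod1 became 2.42, Cxcl9 0.61, Tnfaip2 0.023, Rgs16 -0.055 and Hist1h2ap 0.46. Thinned, Ifng-expressing over other CD4 T cells became -0.23 and -0.53 for Mki67 (Stat4fl/flCD11cCre and WT) and 0.047 for Cxcl2 in Stat4fl/flCD11cCre. Crtam became -0.24 with the mean of CPM per cell. Without the 5 barcodes with the most of it in each library (chosen after seeing the data), Csf2 became -0.035 between genotypes. It was 1.49 with the top barcode alone left out. Without its top barcode Il2 became -0.90 between genotypes and 1.31 over Il17a cells in WT. Of the other single-gene and list values, 1254 stayed within their interval (lists: within 0.1) and 325 moved beyond it without a value past 1.5-fold changing sign. No paired analysis was possible because each genotype has 1 library.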
